A study of Mus musculus with 4 samples.

Results

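A set of 35 genes of the Toll-like receptor and inflammasome systems were followed in cells of bronchoalveolar lavage fluid (BALF) from bleomycin-administered mice. The members were taken from a list of gene symbols, and each was read from its probes through the accession that the array assigns to them, with the brightest probe standing for the gene. All 35 had a probe, of 20802 named genes on the arrays, and all 35 were well above background on all 4 arrays. Bleomycin was injected intraperitoneally at 0.035 U/g, 2 times a week, and the cells were collected on day 22. Both genotypes received it, so no array shows the level without bleomycin. The 2 wild-type arrays came from littermates of the S1pr2-null animals, which were of a mixed strain background with 1 backcross to C57BL/6J, and the mice were 8 to 10 weeks old. S1pr2 encodes a receptor for the lipid mediator sphingosine-1-phosphate, and the comparison asks how its deletion alters the transcripts of these cells under bleomycin. The deletion is carried by all cells of the animal. The labels call the tissue alveolar macrophages, whereas the methods describe the cells recovered by lavage, without a sort. The number of mice behind each array is not given in the sources used here.

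Toll-like receptors recognise microbial lipids, proteins and nucleic acids, at the plasma membrane or inside endosomes, and pass the signal through the adaptors MyD88 and TRIF to kinases and to NF-kB. Inflammasomes are cytosolic assemblies in which a sensor recruits the adaptor ASC, encoded by Pycard, and activates caspase-1. Caspase-1 matures interleukin-1β and interleukin-18 and cleaves gasdermin D, which opens pores in the plasma membrane. Alveolar macrophages, the resident phagocytes of the airspaces, carry many of these receptors, and interleukin-1β is a long-studied mediator in the bleomycin-injured lung.

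The comparison rests on 2 arrays per genotype, and the values below are log2 of the background-corrected intensity over the 75th percentile of the same array, which lay between 2489 and 2817 intensity units. A value of a gene can be compared between arrays but not with the value of another gene, because probes differ in brightness. Differences are S1pr2-/- minus wild-type, by the labels. The S1pr2 probe itself went against them, with -0.13 and -0.16 in wild-type but 2.67 and 2.54 on the arrays labelled S1pr2-/-, so that every direction given here rests on the labels. Whether this probe lies in the deleted stretch was not determined. The marker check gave the macrophage genes at a summed level, in multiples of the array's 75th percentile, of 406 and 426 in wild-type against 404 and 409 on the arrays labelled S1pr2-/-, with all 7 measured genes above background. Eosinophil genes were summed at 2.08 and 6.63 in wild-type and at 0.111 and 0.188 on the arrays labelled S1pr2-/-. Neutrophil genes were summed at 84.1 and 93.9 against 67.7 and 58.9. In such a mixture of cells, fewer cells of a type and less RNA per cell cannot be told apart.

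Most of the Toll-like receptor and inflammasome genes lay close to the same level in both genotypes. The median log2 difference over the 35 genes was 0.041, against 0 over all 15424 named genes tested, and the median absolute difference was 0.113 against 0.118. Within 1.5-fold lay 33 of 35 genes (94.3%), against 94.7% of all genes. The 2 genes past 1.5-fold were Lbp, which was higher on the arrays labelled S1pr2-/-, and Mefv, which was lower. By the fold alone, 3.99% of all genes were lower and 1.28% were higher. After Benjamini-Hochberg adjustment, limma called 0 of 35 members at an adjusted p under 0.05, as it called 0% of all genes tested, and the adjusted p of the members lay between 0.508 and 1. At an unadjusted p under 0.05, 1 member was lower (2.86%, against 5.95% of all genes) and 5 were higher (14.3%, against 4.55%). The methods' t-test gave 1 lower and 3 higher at the same threshold and 0 after adjustment. With the 1.5-fold of the methods added to limma's unadjusted p, 0 members were lower, against 1.93% of all genes, and 1 was higher (2.86%, against 0.577%). The share of members on the higher side was thus above that of all genes by both rules, but it rests on 5 genes and on 1 gene, and no test of the list was run.

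**Figure D1:**
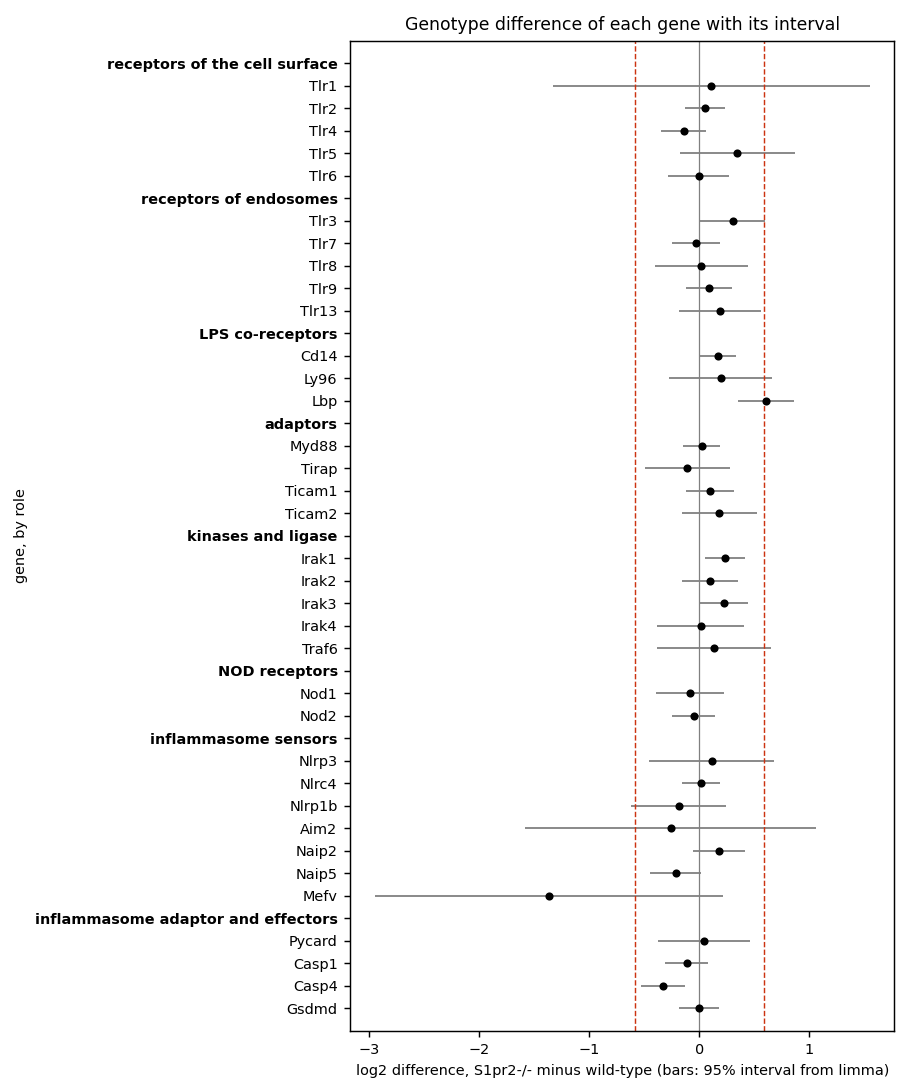
Log2 difference (S1pr2-/- minus wild-type, by the labels) of each of the 35 genes on the horizontal axis, grouped by role on the vertical axis, with bars for the 95% interval from limma and dashed lines at 1.5-fold. Points of 33 genes lie between the dashed lines, and Lbp and Mefv lie outside them, with the bar of Mefv reaching across 0.

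An absence of calls with 2 arrays per genotype does not show equal levels, and the intervals give a range for each difference. They rest on the spread between these RNA samples, and whether it includes the spread between mice is not known. The 95% interval from limma lay wholly inside 1.5-fold for 25 of 35 members (71.4%), against 67.2% of all genes. For the other 10, namely Tlr1, Tlr3, Tlr5, Ly96, Lbp, Traf6, Nlrp3, Nlrp1b, Aim2 and Mefv, it reached past 1.5-fold on at least one side. Arrays of the same genotype differed by a median of 0.0993 over the members in wild-type and of 0.119 on the arrays labelled S1pr2-/-. In 11 members (31.4%) the difference between genotypes was larger than both differences within a genotype, against 30.7% of all genes. The arrays of the genotypes did not overlap in 5 members with lower and 11 with higher values on the arrays labelled S1pr2-/-, where 21.9% and 22.2% of all genes did so.

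**Figure D2:**
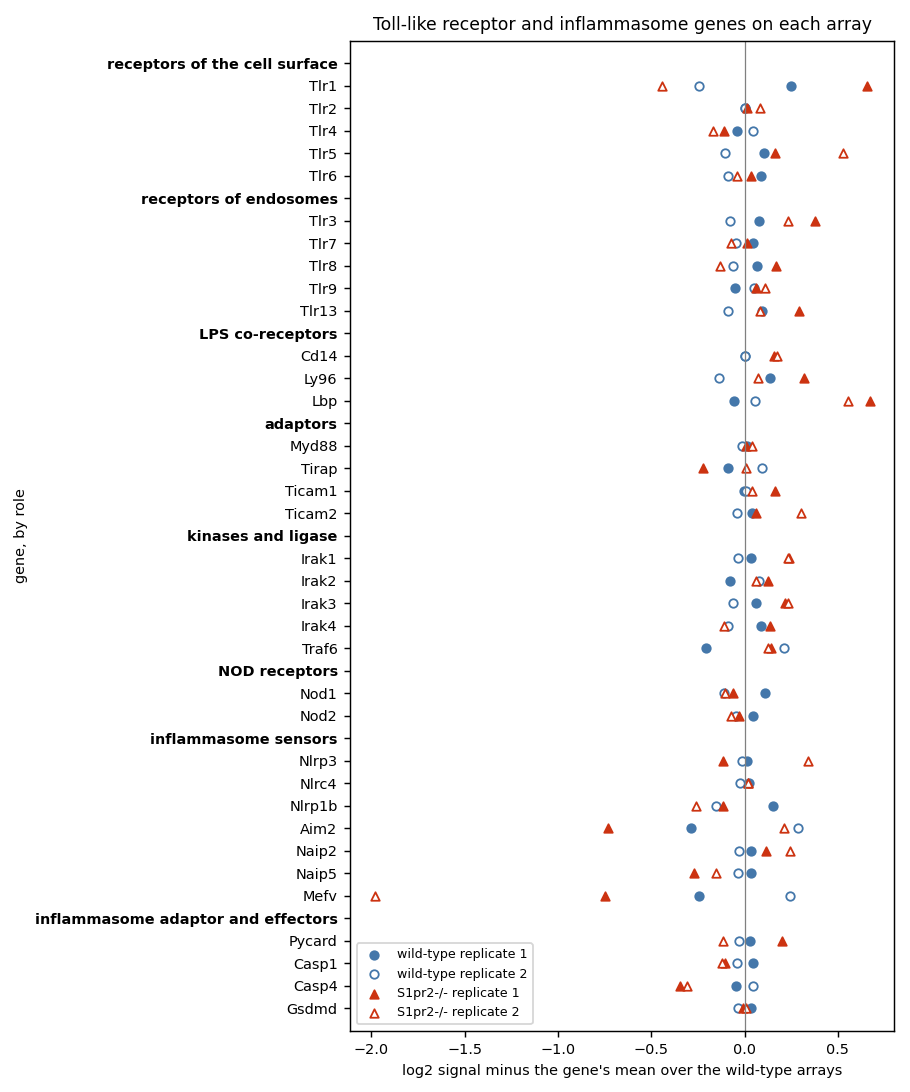
Log2 signal minus the gene's mean over the wild-type arrays on the horizontal axis, for each of the 35 genes listed by role on the vertical axis. A point stands for each of the 2 wild-type arrays and the 2 arrays labelled S1pr2-/-. The 4 points of most genes lie close together, while those of Tlr1, Aim2 and Mefv are spread within a genotype, by up to 0.943 for Aim2 and 1.23 for Mefv.

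Among the receptors of the cell surface, Tlr2, which recognises bacterial lipopeptides, was the brightest and gave 4.52 and 4.52 in wild-type and 4.53 and 4.60 on the arrays labelled S1pr2-/-. Its difference was 0.05, with a 95% interval from -0.13 to 0.23. Tlr2 works in pairs with Tlr1 or Tlr6. Tlr6 differed by -0.0052 (95% interval -0.28 to 0.27). Tlr1 gave -1.76 and -2.26 in wild-type and -1.35 and -2.45 on the arrays labelled S1pr2-/-. The arrays of both genotypes overlapped widely for Tlr1, and the interval of its difference ran from -1.33 to 1.55, which takes in more than 2-fold either way. Tlr4, the receptor for lipopolysaccharide (LPS), gave 1.27 and 1.36 in wild-type and 1.21 and 1.15 on the arrays labelled S1pr2-/-. Both of the latter were lower, by a mean of -0.14 (95% interval -0.34 to 0.06). Tlr5, the flagellin receptor, was at -3.17 and -3.37 against -3.11 and -2.74, a difference of 0.35 with an interval from -0.18 to 0.87.

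Tlr13, an endosomal receptor for bacterial ribosomal RNA, was the brightest of the receptors of endosomes. It gave 4.23 and 4.05 in wild-type and 4.43 and 4.22 on the arrays labelled S1pr2-/-, which overlapped, with a difference of 0.19 (95% interval -0.18 to 0.56). Tlr3, which binds double-stranded RNA and signals through TRIF alone, gave -3.37 and -3.53 in wild-type and -3.07 and -3.22 on the arrays labelled S1pr2-/-. The genotypes did not overlap, and the difference was 0.30 (standard error 0.098, adjusted p = 0.520 from limma). Tlr9, a receptor for unmethylated CpG DNA, differed by 0.08, and Tlr8, the closest relative of Tlr7, by 0.02 with an interval from -0.41 to 0.44. Tlr7, which binds single-stranded RNA, was the one receptor here with 2 probes, and they differed. Its brighter probe gave 2.21 and 2.13 against 2.18 and 2.10, a difference of -0.03. The dimmer gave 1.501 and 1.54 against 1.68 and 1.71, a difference of 0.17 without overlap (adjusted p = 0.521 from limma).

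The transcripts of the proteins that hand LPS to Tlr4 were all higher on average on the arrays labelled S1pr2-/-. Lbp, the LPS-binding protein that carries LPS to Cd14, gave -5.00 and -4.88 in wild-type and -4.27 and -4.39 on the arrays labelled S1pr2-/-. The probe was dim, though well above background on all 4 arrays. The values of a genotype lay within 0.119 of each other and the genotypes did not overlap. The signal of Lbp was higher on both arrays labelled S1pr2-/- by a mean of 1.53-fold, a log2 difference of 0.61 (standard error 0.084, 95% interval 0.36 to 0.86, adjusted p = 0.508 from limma). Over the alternative settings and single arrays left out its difference ran from 0.50 to 0.73, and without wild-type replicate 1 or S1pr2-/- replicate 1, or with normexp background correction, it fell short of 1.5-fold with an unadjusted p under 0.05. Cd14, the co-receptor on the macrophage surface, gave 2.42 and 2.42 in wild-type and 2.58 and 2.59 on the arrays labelled S1pr2-/-. The arrays of a genotype were almost equal for Cd14, and the difference was 0.17 (standard error 0.054, adjusted p = 0.519 from limma), which is 1.12-fold. Ly96, also called MD-2, which sits on Tlr4 and binds LPS, gave 1.31 and 1.03 against 1.49 and 1.24 and overlapped between genotypes, with a difference of 0.20 (95% interval -0.27 to 0.66).

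The adaptors lay within 0.20 of their wild-type level. Myd88, used by all Toll-like receptors here other than Tlr3, gave 2.42 and 2.39 in wild-type and 2.41 and 2.45 on the arrays labelled S1pr2-/-. Its 95% interval ran from -0.15 to 0.19 around a difference of 0.02, one of the narrowest among the members. Tirap, which bridges Myd88 to Tlr2 and Tlr4, differed by -0.11 and overlapped between genotypes. Ticam1, which encodes TRIF, differed by 0.10, and Ticam2, the bridge of TRIF to Tlr4, by 0.18. For both Ticam1 and Ticam2 the arrays labelled S1pr2-/- were above both wild-type arrays, with 95% intervals from -0.12 to 0.32 and from -0.16 to 0.52.

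The kinases and the ligase downstream of Myd88 had a higher mean on the arrays labelled S1pr2-/- in 5 of 5 cases, as did 22 of the 35 members (62.9%) and 49.6% of all genes. For Irak4 and Traf6 the sign turned when a single array was left out, to as low as -0.11 and -0.074. Irak1, the kinase recruited to the Myd88 complex, gave 1.68 and 1.62 in wild-type and 1.89 and 1.88 on the arrays labelled S1pr2-/-. The difference was 0.24 (standard error 0.059, adjusted p = 0.508 from limma). Its 2 other probes gave differences of 0.15 and 0.12, in the same direction. Irak3, also called IRAK-M, is an inhibitor of this step in monocytes and macrophages. It gave 0.016 and -0.11 in wild-type and 0.17 and 0.19 on the arrays labelled S1pr2-/-, without overlap, a difference of 0.22 (standard error 0.073, adjusted p = 0.520 from limma). Irak2, the brightest of this group, gave 2.50 and 2.65 against 2.70 and 2.64 and overlapped, with a difference of 0.09. Irak4, the first kinase of the complex, differed by 0.01 (95% interval -0.38 to 0.41) and the ubiquitin ligase Traf6 by 0.13 (95% interval -0.39 to 0.65).

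The NOD receptors, which sense fragments of bacterial peptidoglycan in the cytosol, overlapped between genotypes. Nod1 gave 3.66 and 3.44 in wild-type and 3.49 and 3.45 on the arrays labelled S1pr2-/-, with a difference of -0.08 (95% interval -0.39 to 0.23). Nod2 differed by -0.05 (95% interval -0.25 to 0.15).

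Mefv had the largest difference in size of the 35 genes. It encodes pyrin, a sensor that can form an inflammasome, and it is known from granulocytes and monocytes. Its brighter probe gave -2.01 and -1.53 in wild-type and -2.52 and -3.75 on the arrays labelled S1pr2-/-. The genotypes did not overlap, but the arrays labelled S1pr2-/- lay 1.23 apart, which is nearly the size of the difference between genotypes. The signal was 2.57-fold lower on the arrays labelled S1pr2-/-, with a log2 difference of -1.36 (standard error 0.520, 95% interval -2.94 to 0.21, adjusted p = 0.539 from limma). The second, dimmer probe of Mefv did not show it, with -3.92 and -3.71 in wild-type and -3.62 and -3.76 on the arrays labelled S1pr2-/-, with a difference of 0.13 (95% interval -0.21 to 0.46). Without S1pr2-/- replicate 2 the difference of the brighter probe was -0.75, and the mean over both probes gave -0.62. The stretch of 250 bases before the Mefv start site (RefSeq, GRCm38.p6, chr16:3718125-3718374, minus strand) is shown because this gene differed most, and none of the 4 motifs searched on both strands was found in it.

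Mefv: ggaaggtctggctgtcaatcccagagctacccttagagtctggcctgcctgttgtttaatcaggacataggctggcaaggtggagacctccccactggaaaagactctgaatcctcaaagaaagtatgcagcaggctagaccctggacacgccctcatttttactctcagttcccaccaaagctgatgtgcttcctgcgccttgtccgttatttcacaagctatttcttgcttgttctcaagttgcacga

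The other sensors were closer together. Naip5, a receptor for flagellin that works with Nlrc4, was the brightest and gave 5.11 and 5.03 in wild-type and 4.80 and 4.92 on the arrays labelled S1pr2-/-. Naip2, which reads the rod protein of bacterial secretion systems, gave 3.43 and 3.37 in wild-type and 3.51 and 3.64 on the arrays labelled S1pr2-/-. Both genes were without overlap but in opposite directions, Naip5 by -0.21 (95% interval -0.44 to 0.02) and Naip2 by 0.18 (95% interval -0.06 to 0.41). Mouse Naip and Nlrp1 genes have near-identical copies, and whether their probes read a single copy was not tested. Nlrc4, their shared partner, gave -1.01 and -1.05 against -1.01 and -1.01, a difference of 0.02 with an interval from -0.15 to 0.19. Nlrp3, the sensor of membrane damage, crystals and ion flux, gave -3.74 and -3.77 in wild-type and -3.87 and -3.41 on the arrays labelled S1pr2-/-. These overlapped, with a difference of 0.11 (95% interval -0.46 to 0.68), and its second probe gave 0.22 without overlap. Aim2, the sensor of cytosolic DNA, gave -0.54 and 0.03 against -0.99 and -0.04. Its arrays differed more within each genotype, by 0.575 and 0.943, than between the genotype means, by -0.26, with an interval from -1.58 to 1.06. The 2 probes of Nlrp1b, a sensor activated by proteases such as anthrax lethal factor, gave -0.19 and 0.06, and both overlapped.

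Casp4 was the single member with a lower value at an unadjusted p under 0.05. It encodes the mouse caspase-11, which binds cytosolic LPS and cleaves gasdermin D without a sensor of the Nlr family, and its transcription is known to be raised by LPS and interferons. Casp4 gave 3.07 and 3.16 in wild-type and 2.77 and 2.80 on the arrays labelled S1pr2-/-. The genotypes did not overlap, and the signal was 1.26-fold lower, a log2 difference of -0.33 (standard error 0.066, 95% interval -0.53 to -0.13, adjusted p = 0.508 from limma). A second probe gave 2.62 and 2.67 against 2.42 and 2.42, a difference of -0.23 (standard error 0.057, adjusted p = 0.508 from limma). Both probes of Casp4 thus lay the same way. The animals were of a mixed strain background, and whether both genotypes carried the same strain allele of Casp4 was not tested. Over all settings and arrays left out, the difference of the brighter probe lay between -0.38 and -0.28. The stretch of 250 bases before the first of 2 listed start sites of Casp4 (RefSeq, GRCm38.p6, chr9:5308599-5308848, plus strand) is shown because it holds 2 separate stretches in capitals that match the NF-kB consensus, the binding letters of the factor that Toll-like receptors activate.

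Casp4: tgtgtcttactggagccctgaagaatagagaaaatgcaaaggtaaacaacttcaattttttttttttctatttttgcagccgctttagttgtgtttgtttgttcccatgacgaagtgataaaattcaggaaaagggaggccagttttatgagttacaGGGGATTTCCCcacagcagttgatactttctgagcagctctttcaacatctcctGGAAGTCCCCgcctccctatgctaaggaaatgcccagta

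The first stretch holds 2 overlapping matches between 93 and 83 bases before the start, of which one reads as a match on both strands, and the second lies 39 to 30 bases before it, on the minus strand. A match to these letters is a description of the sequence and does not show that the factor binds there. Of the 35 members, 28 had such a promoter in the table, and the consensus was found in 5 of them, Casp4, Irak1, Naip5, Tlr2 and Tlr3 (17.9%, against 7.01% of 27025 genes). The 5 genes did not share a direction, with Casp4 and Naip5 lower and Irak1, Tlr2 and Tlr3 higher on the arrays labelled S1pr2-/-. The letters AGGAAGT, the core read by PU.1 and other ETS factors, were found in 8 of 28 promoters (28.6%, against 7.8% of genes), those of Aim2, Naip2, Naip5, Nlrc4, Nlrp1b, Pycard, Tlr1 and Tlr6. TTGCNNAA, a C/EBP pair of half-sites, was in 6 (21.4% against 9.55%), and TATAAA was in 3, against 13% of genes. No test was run on these shares.

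The remaining parts of the inflammasome lay close to their wild-type level. Casp1, the protease at its centre, gave 4.26 and 4.17 in wild-type and 4.11 and 4.09 on the arrays labelled S1pr2-/-, lower without overlap by -0.11 (95% interval -0.31 to 0.08). Pycard gave 3.97 and 3.91 against 4.14 and 3.83 and overlapped, with a difference of 0.04 (95% interval -0.38 to 0.46). Gsdmd, the pore former, gave 1.76 and 1.69 against 1.72 and 1.73, a difference of -0.0016 with an interval from -0.18 to 0.18. For Casp1, Pycard and Gsdmd the intervals leave out a 1.5-fold difference in either direction.

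**Figure D3:**
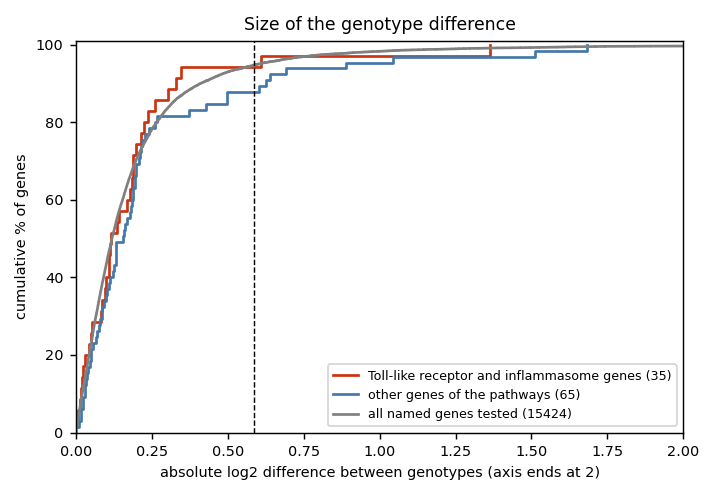
Share of genes on the vertical axis whose absolute log2 difference is at or below the value on the horizontal axis, for the 35 Toll-like receptor and inflammasome genes, the other genes of the pathway and all 15424 named genes tested. The line of the 35 genes runs near that of all genes over most of its length, and 33 of the 35 genes end within 1.5-fold.

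Of 69 further genes of the same pathways, 67 had a probe and 65 were tested. limma called 0 of them at an adjusted p under 0.05, and at an unadjusted p under 0.05, 8 were lower (12.3%, against 5.95% of all genes) and 4 higher (6.15%, against 4.55%). The methods' t-test had 6 lower and 4 higher at that threshold and 0 after adjustment. With 1.5-fold added, 6 were lower (9.23%, against 1.93% of all genes) and 0 higher by limma. With all arrays this count of lower genes lay between 4 and 7 over the alternatives, but the genes in it changed. Il1b was counted under all 12 of them. Il1rl1 was added under quantile normalization, normexp, the authors' values, no floor and probes detected on all arrays. The 24 genes listed for signalling downstream of the receptors had 0 of the 6 lower genes. The 6 tested genes listed for the folding and trafficking of Toll-like receptors also had 0. At a share of 1.93%, lists this short may well hold 0. The 6 lower genes were Il1b, Gsdme, Otud7b, Nlrc5, Il33 and Tlr12, of which 3 belonged to the 17 tested genes of inflammasome licensing, products and cell death.

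Il1b, the cytokine that caspase-1 matures, gave 2.11 and 2.25 in wild-type and 0.91 and 0.42 on the arrays labelled S1pr2-/-. The genotypes were far apart relative to their spread, and the signal was 2.85-fold lower, a log2 difference of -1.51 (standard error 0.207, 95% interval -2.14 to -0.88, adjusted p = 0.508 from limma). It lay between -1.76 and -1.27 over the alternatives, single arrays left out included. Il18, the other substrate, gave 4.82 and 5.14 against 4.95 and 5.36. It overlapped between genotypes, with a difference of 0.18 and an interval from -0.46 to 0.81. The wild-type and S1pr2-/- arrays thus stood apart for Il1b, while Nlrp3, Pycard and Casp1, the sensor, adaptor and protease of its maturation, differed by 0.11, 0.04 and -0.11. The contrast between these genes was not tested.

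Gsdme, a pore former cleaved by caspase-3, gave -2.90 and -2.33 in wild-type and -3.44 and -3.87 on the arrays labelled S1pr2-/-, with a difference of -1.04 (95% interval -1.91 to -0.18). Nlrc5, an activator of MHC class I genes, gave 1.83 and 1.95 against 1.35 and 1.05, a difference of -0.69, and the mean over its 2 probes gave -0.43. Il33, an epithelial alarmin, gave -3.70 and -3.81 against -4.28 and -4.49, and Tlr12, a receptor for protozoan profilin, gave -2.47 and -2.63 against -3.04 and -3.27. The calls of Il33 and Tlr12 by fold and p were lost under quantile normalization and normexp, where normexp gave differences of -0.34 and -0.44. That of Gsdme was lost with the percentile over detected probes, no filter, the methods' t-test and the replicate block, by its p and not its size. In all 4 of these genes both arrays labelled S1pr2-/- lay below both wild-type arrays. This adds nothing to their calls, since they were named for being lower on the same arrays. Of all genes, 21.9% were lower without overlap. Otud7b, a deubiquitinase that restrains NF-kB, was dim, at -5.55 and -5.26 against -6.55 and -6.05, and its difference of -0.89 became -0.021 when the percentile was taken over detected probes. By the fold alone, 7 genes were lower (10.8%, against 3.99% of all genes) and 1 was higher (1.54%, against 1.28%). Il1rl1, the receptor of interleukin-33, was added to the lower ones, at 0.48 and 1.94 against -0.23 and -0.71, and Slc11a1, a metal transporter of phagosomes, was the higher one, at 1.21 and 0.92 against 1.93 and 1.47.

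The order of the 4 arrays was the same for Mefv, Il1b and Gsdme. Wild-type replicate 2 was highest, followed by wild-type replicate 1, then S1pr2-/- replicate 1, and S1pr2-/- replicate 2 was lowest. The summed neutrophil markers had this order too, at 93.9, 84.1, 67.7 and 58.9 times the 75th percentile, but of the single markers only S100a9 and Cxcr2 did among the 7 tested. Csf3r made up 47.1% to 66.9% of the sum. S100a8 lay the other way, at 3.91 and 3.73 in wild-type and 4.29 and 3.85 on the arrays labelled S1pr2-/-, which overlapped. Of the 7 neutrophil markers tested, 5 were lower without overlap, against 21.9% of all genes. Of these, 2 also passed 1.5-fold and the 0.05 limit on limma's unadjusted p. Other lists had such counts too, with 5 of 7 epithelial, 3 of 6 T cell and 3 of 7 dendritic cell markers lower without overlap. In these lists 0 were higher without overlap, and 0, 2 and 0 passed both limits on the lower side. The summed T cell and dendritic cell markers were, like the neutrophil sum, lower on both arrays labelled S1pr2-/-, while the epithelial sum overlapped. Ngp, a defining gene of maturing neutrophils, stood well above background on 0 of the 4 arrays, and Ly6g had no named probe. The 4 eosinophil markers tested were all lower without overlap, against 21.9% of all genes. Ccr3, Il5ra and Prg2, measured on all arrays, differed by -4.47, -3.73 and -5.32, and Epx was at the floor on S1pr2-/- replicate 1. Their sum was highest on wild-type replicate 2 and lowest on S1pr2-/- replicate 1. The summed macrophage markers had another order, and overlapped between genotypes. The array order of Mefv, Il1b and Gsdme was not particular to neutrophil markers. Among others, the T cell markers Cd3d, Lck and Cd5 had it, as did the monocyte marker Plac8 and the NK cell marker Eomes. The epithelial markers Epcam and Cdh1 and the pathway genes Nlrc5 and Il1rl1 had it too. The part of any cell type in the values of Mefv, Il1b and Gsdme was not tested.

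**Figure D4:**
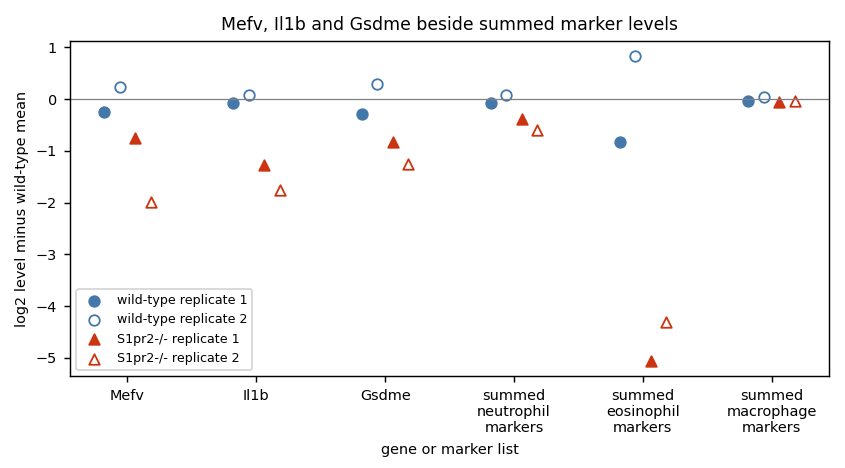
Mefv (brighter probe), Il1b, Gsdme and the summed neutrophil, eosinophil and macrophage markers along the horizontal axis, with a point for each of the 4 arrays. The vertical axis gives the log2 level minus its mean over the wild-type arrays. Il1b, Gsdme, Mefv and the neutrophil sum are highest on wild-type replicate 2 and lowest on S1pr2-/- replicate 2. The points of the macrophage sum lie close together.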

How the data were processed

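RNA of BALF cells from 2 wild-type and 2 S1pr2-/- arrays was hybridized to one-color Agilent mouse arrays, on 1 slide with 1 scan, so that no batch could be tested. The authors deposited the intensity of each spot, background-corrected by Feature Extraction (version 11.0.1.1 per the file headers, 10.7.3.1 per the labels), and a table of their normalized log2 values, used here as an alternative. That table held log2 values relative to each probe's wild-type mean. For 99.9% of tested probes they lay within 0.01 of the values computed here without the floor and relative to that mean. A constant offset per array was removed for this comparison.

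Each processed intensity was scaled to the 75th percentile of the non-control spots on its array, raised to a floor of 0.01 on that scale, and taken to log2. Spots with an outlier flag (115 to 273 per array) were left out, 0 were saturated, and spots of a probe were averaged. Of 39429 probes, 69.6% were named by accession in a RefSeq table of GRCm38.p6, and 67.5% to 72.1% were well above background. The 27161 probes that every array measured, and that stood well above background on both arrays of a genotype, were tested with limma 3.58.1 (R 4.3.3), with Benjamini-Hochberg adjustment over all of them, and the brightest probe per gene was reported. The script was tested on simulated data.

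Every member was named. Values on all arrays were given for members past 1.5-fold or under an unadjusted p of 0.05 and for the brightest of each role, and for further members where a comparison used them, which were chosen after their values were seen. Of the other pathway genes, those past 1.5-fold with an unadjusted p under 0.05, Il1b and Il18 were named. Il1rl1, Slc11a1 and Tlr11 fall outside this rule and were chosen after their values were seen. The members and lists were chosen with earlier results of these data known. Marker lists of 11 cell types were summed, and those not given in the report are in the closing section. With this number of arrays the precision is limited, and the smallest two-sided exact permutation p is 0.333. The labels only number the replicates, while the methods speak of 2 independent RNA samples per genotype. Neither says whether these came from different mice. The p-values and intervals thus rest on the spread between these RNA samples, and whether it includes the spread between mice is not known. For normexp, each spot's median signal stood in for the mean signal, which was not among the columns. The methods list the floor before the scaling. Alternatives were other normalizations, no floor, other filters, outlier flags ignored, a replicate block, the methods' t-test, a trended variance, the mean over probes and each array left out.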

Additional observations from a re-analysis of the deposited data

How the results depend on the processing

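Over the 12 alternatives with all arrays, 4 of 420 member values changed sign: Gsdmd to 0.0077 (quantile normalization) and 0.0086 (percentile over detected probes), Tlr6 to 0.0049 (percentile over detected probes) and Tlr7 to 0.072 (mean over probes). Quantile normalization moved the median of all probes by 0.0425. The lowest adjusted p of a member under any alternative was 0.294. With 1.5-fold and an unadjusted p under 0.05, the 1 higher member, Lbp, became 0 with normexp, and the 0 lower members became 1, Mefv, with normexp, with no floor and with probes detected on all arrays. Over all probes the count at an adjusted p under 0.05 was 2 with normexp. At 1.5-fold, the 132 higher probes became 353 (quantile), 66 (percentile over detected probes), 237 (the authors' log2 values), 238 (no floor) and 58 (the methods' t-test), and the 440 lower became 199 (percentile over detected probes), 244 (no filter) and 152 (the methods' t-test). Of the other pathway genes 1 was higher, Slc11a1, with quantile, normexp, the authors' values, no floor, probes detected on all arrays, a trended variance and the replicate block, against 0.

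With the replicate block, 1 member was higher and 0 lower, as without it, and no member was called. Replicate numbers were shared by name only: the correlation of their deviations was 0.187 over 2 pairs, and over all probes the block gave 166 higher and 444 lower.

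Leaving out single arrays, the lone array of a genotype being assumed to vary like the others, gave 151 to 351 higher and 340 to 729 lower probes, 0 to 1 higher members (0 without wild-type replicate 1 or S1pr2-/- replicate 1), 0 to 1 lower members (Mefv, without S1pr2-/- replicate 1) and, of the other pathway genes, 0 to 2 higher (2 without S1pr2-/- replicate 2, Slc11a1 and Tlr11) and 2 to 4 lower against 6 (3 without wild-type replicate 2, 2 without S1pr2-/- replicate 2). In 13 members the sign changed: Aim2 (-0.73 to 0.21), Gsdmd (-0.035 to 0.032), Irak4 (-0.11 to 0.14), Nlrc4 (-0.0054 to 0.040), Nlrp3 (-0.12 to 0.34), Nod1 (-0.19 to 0.027), Pycard (-0.12 to 0.20), Tirap (-0.22 to 0.0075), Tlr1 (-0.44 to 0.66), Tlr6 (-0.094 to 0.083), Tlr7 (-0.073 to 0.015), Tlr8 (-0.13 to 0.17) and Traf6 (-0.074 to 0.34). It also did in Il18 (-0.031 to 0.38). These genes overlapped between genotypes. The cause of these shifts was not tested, other than that fewer arrays entered the fit.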

Other observations

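The summed levels of the other marker lists, in multiples of the array's 75th percentile, were as follows on wild-type replicates 1 and 2 and on S1pr2-/- replicates 1 and 2. Alveolar macrophage markers were at 612, 685, 585 and 658, and monocyte markers at 9.83, 8.68, 13.6 and 9.43. T cell markers were at 49.7, 56.1, 40.8 and 45.5, B cell markers at 1.60, 0.501, 0.635 and 0.456, and NK cell markers at 3.11, 7.63, 3.92 and 2.07. Dendritic cell markers were at 67.4, 64.2, 55.0 and 56.1, and epithelial markers at 26.4, 28.8, 21.2 and 37.0. Of the 5 mast cell and basophil markers, 4 were not well above background on any array, and 0 were tested.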
